A study of Felis catus with 2 samples.

Results

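Fibrillin microfibrils and the elastic fiber proteins that bind them were described here by the level of their transcripts in the iridocorneal angle of the cat eye. The set held 10 gene names: FBN1, FBN2, MFAP2, MFAP4, EFEMP1, EFEMP2, FBLN5, ELN, EMILIN1 and LOX. Each name was matched exactly, and 8 of the 32065 loci of the table carried one of them. EFEMP2 was listed only on a row that joins it with an Ensembl identifier, so its value was kept apart. ELN, which encodes elastin, was not among the names listed and was not analysed here.

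Polyadenylated RNA was sequenced from 2 libraries, 1 from a cat with primary congenital glaucoma (PCG) and 1 from an unrelated healthy cat, both 2 months old. Affected cats of this pedigree are homozygous for a 4-bp insertion in LTBP2. Its product belongs to the latent TGF-beta binding protein family and is itself part of microfibrils. The dissected piece was the iridocorneal angle with its trabecular meshwork, the ciliary body and the sclera beside them. Since each condition had 1 library, there was no replicate error and no test between the cats was possible, so all differences describe these 2 libraries, and the disease cannot be told apart from any other difference between the 2 cats or their dissections.

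Microfibrils are beaded polymers of fibrillin. In the eye they form the zonule, the set of fibers that suspends the lens from the ciliary body, largely without elastin, while in vessels and the sclera they serve as a scaffold on which elastin is laid down and cross-linked. The non-pigmented ciliary epithelium is known as a source of zonule proteins. Fibrillins also hold latent TGF-beta complexes, through LTBP proteins. According to the authors, LTBP2 differs from the other LTBP proteins in that it does not seem to bind latent TGF-beta directly.

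Values are FPKM, the number of fragments scaled by transcript length and library size, as calculated by the authors with Cufflinks, so levels of different genes may be compared within a library. A single FPKM corresponded to 71.2 fragments per kilobase in the normal library against 67.5 in the affected one. Values of the 7 members above 0 in both libraries thus rested on at least 132 fragments per kilobase. The 95% intervals given below assume 1 kilobase of effective transcript, are narrower for longer transcripts, and cover counting error only. A log2 ratio here is the log2 of (affected + 1) divided by (normal + 1). It was taken over the 16676 loci that reached 1 FPKM in at least 1 library, and it understates the change of low genes. All 8 members passed this minimum. The median log2 ratio of those loci was −0.0047.

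The members parted into genes far higher and genes far lower in the affected library. EFEMP1, FBN1 and MFAP4 were at least 2-fold higher, MFAP2 was listed at 146 FPKM in the affected library and at 0 in the normal library, and FBN2, LOX and EMILIN1 were at least 2-fold lower. FBLN5 was lower by less than 2-fold. On the log2(FPKM + 1) scale 4 of the 8 members were therefore past 2-fold upward in the cat with PCG, where the share over all loci was 8.14%, and 3 of the 8 were past 2-fold downward, where it was 8.75%. In either direction 7 of 8 members passed 2-fold, against 16.9% of all loci and 14.1% of those whose mean reached 5 FPKM. Without MFAP2, whose 0 is in doubt, 3 of 7 members were past 2-fold upward and 6 of 7 in either direction. MFAP4, which is among these 3, shares its span with another locus, as described below. The median absolute log2 ratio of those 7 members was 2.07, while that of all loci was 0.41.

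**Figure D1:**
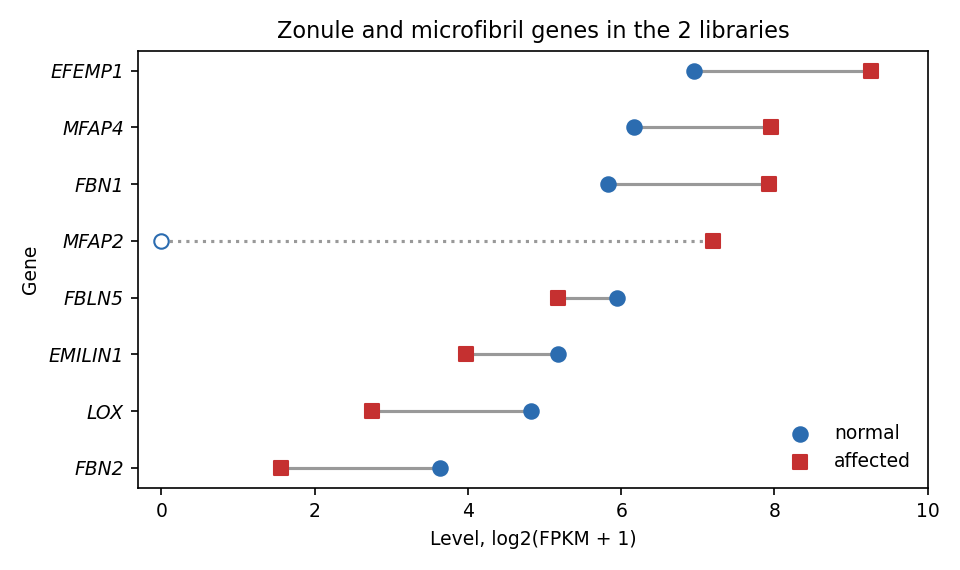
Level of each member in the normal (blue circle) and affected (red square) library as log2(FPKM + 1), 1 library each, ordered by the affected level. The open circle marks MFAP2, listed at 0 in the normal library, and the upper members lie farther right in the affected library while the lower ones lie farther left.

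FBN1 encodes fibrillin-1, the main fibrillin of the postnatal zonule. The FBN1 locus occupies 57137402 to 57372087 of chromosome B3 (felCat5, the build of all positions given here), and its level was 55.8 FPKM in the normal library against 242 FPKM in the affected one. This is a ratio of 4.34 (4.19 to 4.50). The log2 ratio of 2.10 exceeded that of 98.6% of the loci past the minimum.

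FBN2 encodes fibrillin-2, which is known mainly from embryonic and fetal microfibrils. Its locus spans 106497876 to 106756572 on chromosome A1, and its level was 11.4 FPKM in the normal library against 1.96 FPKM in the affected one. The normal value was 5.84 times the affected value (4.86 to 7.02), and the log2 ratio was −2.07. The fibrillins thus stood apart in opposite directions. FBN1 was 4.88 times as high as FBN2 in the normal library and 124 times as high in the affected library. As a share of the summed fibrillin-1 and fibrillin-2 level, FBN2 held 17.0% in the normal library against 0.802% in the affected one. FBN3, the remaining fibrillin gene, was low in both, at 1.69 and 0.21 FPKM.

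An unnamed locus of 269 bases lies 249 bases beyond the end of FBN2, and its level differed in the same direction, from 6.55 FPKM in the healthy cat to 1.54 FPKM in the cat with PCG. Whether it belongs to the FBN2 transcript was not tested.

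MFAP2 and MFAP4 encode small glycoproteins attached to microfibrils. MFAP4 (chromosome E1, 10643479 to 10652445) had a level of 70.6 FPKM in the normal library against 246 FPKM in the affected one, a ratio of 3.49 (3.38 to 3.60) and a log2 ratio of 1.79. This value is uncertain as a measure of MFAP4 alone, because a second locus with the same span carries the name MAPK7, a kinase gene that neighbors MFAP4 in the RefSeq table of a later cat assembly. MAPK7 was listed at 66.4 and 229 FPKM. MFAP4 exceeded it 1.06-fold in the normal library against 1.08-fold in the affected one, so that both loci moved almost in parallel. The kit does not mark the strand, and how fragments were divided between these loci was not tested.

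MFAP2 encodes MAGP-1, a microfibril protein that binds fibrillin directly. It was listed at 146 FPKM in the affected library and at 0 in the normal library (chromosome C1, 11263434 to 11269984). The 0 is not read as absence, and what gave rise to it was not tested. Both loci with this span stood at 0 in the normal library, the unnamed one at 0.43 FPKM in the affected library. A 0 in 1 library beside 10 FPKM or more in the other was found at 35 of the 32065 loci. Genes beside MFAP2 had values in both libraries, such as ATP13A2 with 17.9 FPKM in the normal library against 14.3 FPKM in the affected one. No fold is therefore given for MFAP2. In the affected library its level was 0.60 times that of FBN1. MFAP5, the gene of the related protein MAGP-2, had 34.5 FPKM in the normal library against 30.0 FPKM in the affected one, hence 0.62 times FBN1 in the normal and 0.12 times FBN1 in the affected cat.

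Fibulins are short extracellular proteins that link microfibrils with elastin and basement membranes. EFEMP1, which encodes fibulin-3, was the highest member in both libraries. It lies on chromosome A3 from 76782828 to 76843585 and reached 122 FPKM in the normal library against 612 FPKM in the affected one. The 95% interval of this ratio was 4.89 to 5.12, and 175 loci past the minimum had a log2 ratio above its 2.31. It made up 31.9% of the summed level of the members in the normal library against 46.9% in the affected one, or 52.8% there without MFAP2.

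FBLN5 encodes fibulin-5, which binds elastin and LOXL1 and is required for elastic fiber assembly. Its locus on chromosome B3, from 136333773 to 136414559, had 60.6 FPKM in the normal library against 35.0 FPKM in the affected one. The normal value was 1.73 times the affected value (1.65 to 1.82), with a log2 ratio of −0.78. Hence EFEMP1 exceeded FBLN5 2.02-fold in the normal library against 17.5-fold in the affected one. The row that joins EFEMP2, the gene of fibulin-4 that brings lysyl oxidase to elastin, with an Ensembl identifier stood at 724 FPKM in the normal library against 453 FPKM in the affected one. With the value of the second identifier included, this row was higher than every member in the normal library, and its log2 ratio was −0.67.

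EMILIN1 encodes a glycoprotein at the border of elastin and microfibrils. It had 35.1 FPKM in the normal library against 14.7 FPKM in the affected one (chromosome A3, 120840337 to 120847268), so that the normal value was 2.38 times the affected value (2.21 to 2.57), with a log2 ratio of −1.20. The loci KHK and CGREF1, which share a span that ends 738 bases before EMILIN1, were also lower in the affected library, with log2 ratios of −0.89 and −1.16.

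LOX encodes lysyl oxidase, the copper enzyme that cross-links elastin and collagen. The locus on chromosome A1, from 101022348 to 101038504, had 27.4 FPKM in the normal library against 5.71 FPKM in the affected one. The normal value was 4.80 times the affected value (4.30 to 5.35), and the log2 ratio of −2.08 was nearly that of FBN2. A lower ratio than that of FBN2 was found at 1.61% of the loci, and a lower one than that of LOX at 1.59%. The related enzyme LOXL1, whose human gene carries risk variants for exfoliation glaucoma, was higher than LOX in both libraries, at 179 FPKM in the normal library against 218 FPKM in the affected one. LOX supplied 11.2% of the summed level of LOX and LOXL1 to LOXL4 in the normal library against 2.16% in the affected one.

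The order of the members' levels was similar at the top and spread out below. In the normal library it ran EFEMP1, MFAP4, FBLN5, FBN1, EMILIN1, LOX and FBN2, and in the affected library EFEMP1, MFAP4, FBN1, MFAP2, FBLN5, EMILIN1, LOX and FBN2. The levels of MFAP4 and FBN1 in the affected library differed 1.02-fold (0.99 to 1.04), which is within counting error on 1 kilobase. Other neighbors in either order differed by more than counting error, though no spread between cats is known. Among the 7 members above 0 in both libraries, the highest level was 10.7 times the lowest in the normal and 313 times the lowest in the affected cat. The 3 members that were higher in the affected library held ranks 1, 2 and 4 of the normal library, and the last 3 of that order were all at least 2-fold lower in the cat with PCG.

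**Figure D2:**
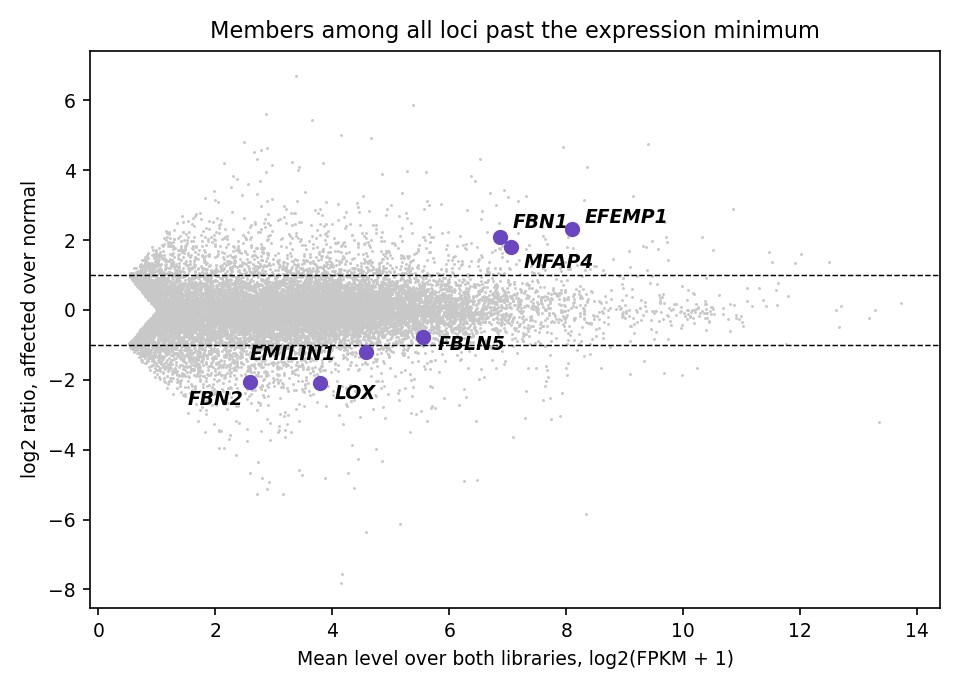
Log2 ratio of affected over normal against the mean log2(FPKM + 1) of both libraries, for loci past the expression minimum other than those at 0 in exactly 1 library (grey) and for the 7 members above 0 in both (purple). Dashed lines mark 2-fold on this scale: EFEMP1, FBN1 and MFAP4 lie above the upper line, FBLN5 between the lines, and EMILIN1, FBN2 and LOX below the lower line.

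A median does not summarize members that lie so far apart. The median log2 ratio was −0.78 over the 7 members above 0 in both libraries and 0.51 when MFAP2 was counted with the normal value of 0, so that the value of this 1 gene turned its sign. The range over the 7 members was 4.40.

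Loci around the members were past 2-fold about as often as all loci. Within 1 megabase of the 7 members stood 121 other named loci past the minimum that did not overlap the member. Of these, 17, or 14.0%, were at least 2-fold higher or lower, where the share over all loci was 16.9%. FBN1 had a higher log2 ratio than all 12 of its neighbors, whose highest value was 0.73 and whose median was −0.55. EFEMP1 likewise lay above all 11 of its neighbors, which reached 0.21 at most. FBN2 lay below all 6 of its neighbors, the lowest of which had −0.74. Around LOX, EMILIN1 and FBLN5, 1 locus each had a lower ratio than the member, and around MFAP4 1 of 28 loci had a higher one. MAPK7, which shares the span of MFAP4 and is not among the 28, had a log2 ratio of 1.77, close to the 1.79 of MFAP4. FBN1, FBLN5 and LTBP2 share chromosome B3, and their log2 ratios were 2.10, −0.78 and 1.66.

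**Figure D3:**
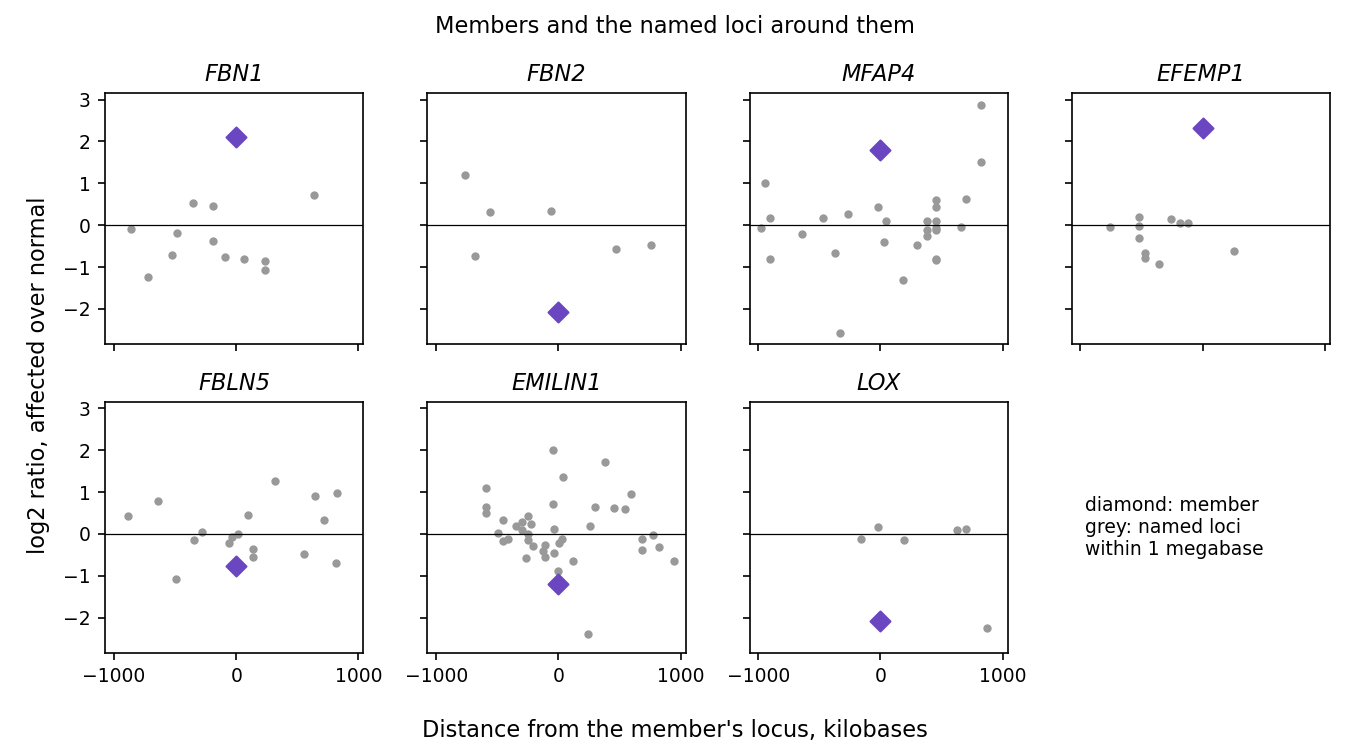
Log2 ratio of affected over normal for each member (purple diamond) and for named loci past the minimum within 1 megabase (grey), against the distance from the member's locus in kilobases. Loci that overlap a member are left out. FBN1 and EFEMP1 stand above all of their neighbors and FBN2 below all of its neighbors.

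Partners of the members in microfibrils were counted in lists by function, and their counts stand beside the 8.14% of all loci past 2-fold upward and the 8.75% past 2-fold downward. Of 7 LTBP, fibulin and fibrillin partners, 6 passed the minimum, 2 were at least 2-fold higher and 2 at least 2-fold lower, and their median log2 ratio was 0.14. LTBP2, mutated in the affected cats, had 16.7 FPKM in the normal library against 54.8 FPKM in the affected one, and FBN1 stood 3.34 and 4.42 times above it. FBLN1, which encodes fibulin-1, had the highest mean of this list, with 224 FPKM in the normal library against 506 FPKM in the affected one. EFEMP1 was 0.55 times the level of FBLN1 in the normal library and 1.21 times that level in the affected library. The lower genes were FBLN7, with 83.2 and 20.2 FPKM, and FBN3. FBLN2 was listed at 0 in both libraries.

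Of 14 further microfibril and elastic fiber genes, 12 stood on rows of their own and passed the minimum. None of these 12 was higher in the affected library, 5 were at least 2-fold lower, where 8.75% of all loci were, and their median log2 ratio was −0.84. DCN, which encodes the collagen-binding proteoglycan decorin, had 686 FPKM in the normal library against 82.2 FPKM in the affected one. The related proteoglycan gene BGN had 554 and 105 FPKM. FN1, which encodes fibronectin, the matrix on which fibrillin is assembled, had 124 and 15.7 FPKM. EMILIN3 and MMRN1, relatives of EMILIN1, had log2 ratios of −2.13 and −1.84. All 12 genes thus lay on the side of LOX, EMILIN1 and FBLN5, and opposite to FBN1 and EFEMP1, though 7 of them stayed within 2-fold. The row that joins VTN, also of this list, with another entry went the other way, with 6.61 and 12.6 FPKM.

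Of 8 genes of lysyl oxidases and cross-linking, none was at least 2-fold higher on this scale and 3 were at least 2-fold lower. LOXL2 and LOXL3 were nearly level, with log2 ratios of 0.0048 and 0.0016 that turned to −0.046 and −0.046 when both libraries were rescaled to the same sum. LOXL4, with 1.26 and 3.49 FPKM, had a log2 ratio of 0.99 that became 1.41 with a pseudocount of 0.1. TLL1, which encodes a protease related to BMP1, had 1.23 and 0.35 FPKM and went from −0.73 to −1.57. With that pseudocount 1 gene of this list was past 2-fold upward and 4 were past 2-fold downward, and the median went from −0.36 to −0.67. POSTN, which encodes periostin, had 93.9 FPKM in the normal library against 3.92 FPKM in the affected one. BMP1, the protease that activates lysyl oxidase, had 38.6 and 11.0 FPKM, and the transglutaminase gene TGM2 had 18.9 and 7.42 FPKM.

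Of 9 ADAMTS and ADAMTS-like genes linked with microfibrils, 5 stood on rows of their own. ADAMTS10 and ADAMTSL4, which are mutated in human ectopia lentis syndromes, had log2 ratios of 0.65 and −0.24, within 2-fold. ADAMTS10 had the highest mean of the list, with 30.5 FPKM in the normal library against 48.5 FPKM in the affected one. Of these 5 genes, ADAMTS18 was at least 2-fold lower, with 16.7 and 6.01 FPKM. The row that joins THSD4 with another identifier stood at 6.52 and 1.40 FPKM, and the joined row of ADAMTS17 at 39.8 and 35.6 FPKM. ADAMTSL5 had 4.37 and 9.53 FPKM, with a log2 ratio of 0.97 that became 1.11 with a pseudocount of 0.1.

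**Figure D4:**
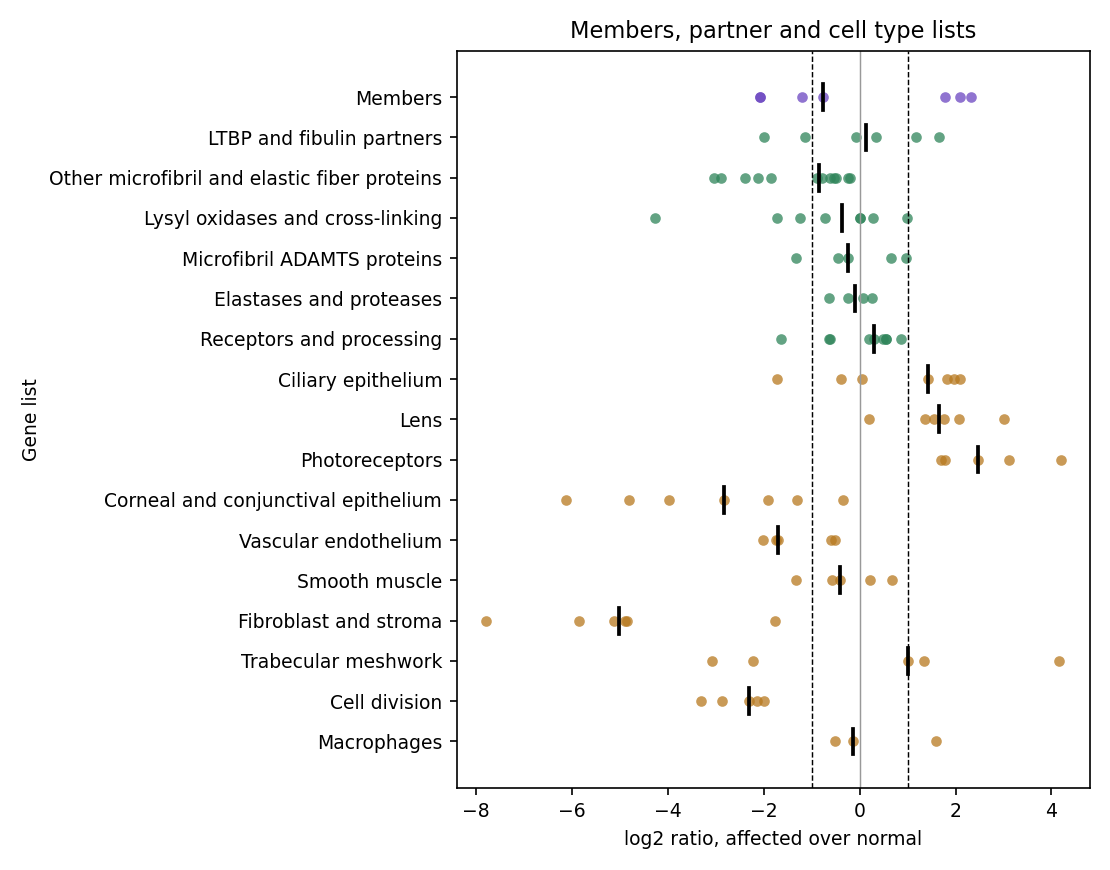
Log2 ratio of affected over normal for single genes (points) and the median of each list (black bar), for the members (purple), the partner lists (green) and the cell type lists (brown), with genes at 0 in exactly 1 library left out. Dashed lines mark 2-fold: members lie on both sides, with medians of −5.01 for fibroblast and stroma genes and 2.48 for photoreceptor genes at the extremes.

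Markers of cell types were counted in the same way. Their counts stand beside the 8.14% of all loci past 2-fold upward and the 8.75% past 2-fold downward. Of 7 ciliary epithelium genes listed, 4 were past 2-fold upward in the affected library and 1 was past 2-fold downward. Their summed level was 1722 FPKM in the normal library against 5021 FPKM in the affected one, and none was at 0. COL9A1, OPTC and COL9A2 of this list were 4.26, 3.52 and 3.91 times as high in the affected library, where FBN1 was 4.34 times as high. WFDC1 was 2.69 times as high, CA4 was nearly level at 1.93 and 2.03 FPKM, and SLC4A4 and CA2 were lower, at 0.76 and 0.30 times the normal value. The lens list had 5 of 6 genes at least 2-fold higher and a sum of 17070 FPKM in the normal library against 27161 FPKM in the affected one. Most of this sum was CRYBA1, a crystallin gene that stayed within 2-fold, with 12676 and 14523 FPKM. The photoreceptor list had 5 of 5 genes at least 2-fold higher, with sums of 262 and 1322 FPKM.

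On the other side stood genes of the stroma, the surface epithelium, dividing cells and vessels. Of 7 fibroblast and stroma genes, 6 were at least 2-fold lower, and their sum was 3709 FPKM in the normal library against 526 FPKM in the affected one, or 79.1 FPKM there without COL1A2. COL1A1, a chain of type I collagen, had 2476 and 41.8 FPKM, and the corneal keratan sulfate proteoglycan gene KERA had 265 and 0.19 FPKM. COL1A2, the gene of the partner chain, was listed at 0 in the normal library and at 447 FPKM in the affected library, and this 0, like that of MFAP2, is not read as absence. The corneal and conjunctival epithelium list had 6 of 7 genes at least 2-fold lower, with sums of 569 and 28.7 FPKM, and DSP was lower by less than 2-fold. Cell division genes were at least 2-fold lower in 5 of 5 cases, with sums of 67.9 and 6.44 FPKM. Vascular endothelium genes were at least 2-fold lower in 3 of 5 cases and lower by less in the rest, with sums of 97.8 and 37.5 FPKM.

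Smooth muscle genes, from vessels and the ciliary muscle, differed less, with sums of 1250 and 1082 FPKM. Of these genes, 1 of 5 was at least 2-fold lower, where 8.75% of all loci were. The trabecular meshwork list had all 5 genes above 0 in both libraries. This does not check the labelled tissue, since 27003 of the 32065 loci were above 0 in the normal library and 26965 in the affected one. CHI3L1 of this list had 0.85 FPKM in the normal library against 32.0 FPKM in the affected one. Of the 5 genes, 3 were at least 2-fold higher, MYOC among them with 150 and 302 FPKM. The 2 genes at least 2-fold lower were MGP, with 455 and 52.9 FPKM, and CDH11, with 60.6 and 12.2 FPKM. The sums of this list were 669 and 407 FPKM. Its median log2 ratio of 1.01 became 0.96 when both libraries were rescaled to the same sum. The macrophage list had 3 of 5 genes listed, with sums of 27.5 and 32.1 FPKM. CD163, a scavenger receptor gene, was past 2-fold upward, with 3.67 and 13.0 FPKM, and the other two stayed within 2-fold. The part of these cell types in the levels of the members was not tested, and in bulk tissue fewer cells of a type cannot be told apart from less RNA per cell.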

How the data were processed

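The authors used TopHat2 2.0.9 with Ensembl gene models to align reads to felCat5 and obtained FPKM per locus with Cufflinks 2.1.1 from unstranded TruSeq libraries. The deposited FPKM were used without rescaling, and the authors' scaling between libraries and filters on loci are not given in the sources used here. FPKM are no counts, for which reason no count model was used, and single libraries allow no p-value. Where a name repeats, the row with the higher mean was used. Starts were raised by 1 to count from 1. The value of 1 fragment was recovered from low values, which come in steps, at unnamed loci of 400 to 3000 bases, where 97.6% of 2414 and 96.5% of 1942 values (normal, affected) were whole fragments to within 0.03, where chance gives 6%. The ratio and step procedures were tested on simulated data. The members and lists were chosen with earlier results of these data known. The text names all members, LTBP2, the partner genes past 2-fold, the highest of each partner list, and further genes named after their values were seen. Loci within 1 megabase came from the deposited table, and RefSeq (F.catus_Fca126_mat1.0), which matched all 10 names, gave only the order of genes beside MFAP2 and MFAP4. Alternatives were another pseudocount, 2 rescalings, 2 other minimums, a 4-fold threshold, and removal of loci at 0 in 1 library. Calculations used pandas 2.3.3 and numpy 2.4.6 in Python 3.11.15, and figures matplotlib 3.10.9.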

Additional observations from a re-analysis of the deposited data

Results flagged for a closer look

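An unnamed locus of 3787 bases that ends 638 bases before FBN1 entered only the counts over all loci, and its value of 1.11 FPKM in the affected library was above the 0.37 FPKM of the normal control. FBN1 itself differed in the same direction.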

How the results depend on the processing

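The counts of members at least 2-fold higher or lower, 4 and 3, stayed within 1.5 times of these values under each alternative. The median log2 ratio of the 8 members, 0.51, turned to −0.78 without loci listed at 0 in exactly 1 library, which removes MFAP2, and to −0.67 with the joined EFEMP2 row counted as a member, an alternative chosen after seeing the data. Over all loci the counts at least 2-fold higher and lower, 1358 and 1459, became 815 and 691 once a mean of 5 FPKM or more was asked for, and 280 and 298 at 4-fold, since fewer loci are compared or pass. Adding 0.1 in place of 1 FPKM gave larger counts, 1992 higher and 2173 lower, as did rescaling to the same sum, with 1568 higher and 1946 lower, which raises the share of all loci that the members are set beside. Of 21 log2 ratios recomputed for single members, none changed sign, and the largest shift was 0.42, for FBN2 with a pseudocount of 0.1. The ratios of single partner genes moved by 0.1 or more without a change of sign in 20 of 132 cases, by up to 1.37 for FBN3, and list medians in 7 of 48 cases, by up to 1.14 for the cell division list, and these 2 largest shifts came with that pseudocount. LOXL2 and LOXL3 took the values −0.046 and −0.046 after rescaling of each library to a sum of 1000000 FPKM, which lowers the affected library relative to the normal one. No paired analysis was possible because there is a single library per condition.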

Other observations

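Of the proteases that cut elastic fibers, HTRA1 had the highest mean, with 478 FPKM in the normal library against 499 FPKM in the affected one, and MMP2 had 325 and 388 FPKM. Of the 4 genes listed on rows of their own, none was at least 2-fold higher or lower on the log2(FPKM + 1) scale, where 16.9% of all loci were, and the median log2 ratio was −0.089. MMP9 was low, with 1.24 FPKM in the normal library against 0.43 FPKM in the affected one, and its log2 ratio went from −0.64 to −1.32 with a pseudocount of 0.1.

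Of 12 genes of microfibril receptors and processing, 10 passed the minimum and 2 of these, ITGA5 and CTSA, were past 2-fold downward, or 1 of 9 without CTSA, whose 0 is in doubt. The share of all loci past 2-fold in either direction was 16.9%. ITGAV and ITGB5, whose products pair as an integrin that binds RGD sites in matrix proteins, had log2 ratios of 0.48 and 0.54. ITGB1 had the highest mean of the list, with 190 FPKM in the normal library against 121 FPKM in the affected one. ITGA5, the fibronectin receptor subunit, was at least 2-fold lower, with 11.5 and 2.99 FPKM, on the same side as FN1. CTSA, a component of the elastin-binding complex of the cell surface, had 103 FPKM in the healthy cat and was listed at 0 in the cat with PCG, which is not read as absence. FURIN, which cleaves profibrillin, had 22.5 FPKM in the normal library against 27.9 FPKM in the affected one.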
